A study of Mus musculus with 12 samples.

Results

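The 8 genes described here code for glutathione transferases and were Gsto1, Gstm1, Gstm5, Gstp1, Gsta4, Gstt1, Mgst1 and Mgst3. They were taken by Entrez ID from the 27179 gene IDs counted in each library. Gsto1 was chosen because it was higher in 12-month knockout retina in these same libraries, so its 12-month values are given as a description with no test, and the question was whether the other 7 genes followed it. Bulk RNA was sequenced from whole mouse retina of control mice and of mice with the labelled genotype Glia-ABCA1KO, a glial deletion of ABCA1, the transporter that passes cholesterol and phospholipids out of cells. Each of the 4 groups, both genotypes at 3 months and both at 12 months, had 3 libraries. The sources used here do not state the strain, the promoter that drives the deletion, the alleles of the control mice or whether each library came from a separate animal. The p-values therefore measure the spread between these libraries, which may be technical. Whole retina holds few glia beside its neurons, and in such bulk samples fewer cells of a type cannot be told apart from less RNA per cell.

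Glutathione transferases join the tripeptide glutathione to reactive, fat-soluble compounds, which makes them easier to export and clear. The cytosolic enzymes fall into classes named by Greek letters, while the microsomal ones are a separate family of membrane proteins that also reduce lipid hydroperoxides. In the retina, where photoreceptor membranes are rich in polyunsaturated lipids and exposed to light, these enzymes are known for handling the products of lipid oxidation. Many transferase genes are known targets of the transcription factor NRF2, which binds the antioxidant response element.

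All coordinates are on GRCm38. The omega-class gene Gsto1 (Entrez 14873) lies on chromosome 19 from 47854973 to 47864790, and its enzyme uses a cysteine at the active site and reduces dehydroascorbate. The mu-class genes lie together on chromosome 3, Gstm1 (Entrez 14862) from 108012250 to 108017973 and Gstm5 (Entrez 14866) from 107895854 to 107898685. The pi-class gene Gstp1 (Entrez 14870) is also on chromosome 19, from 4035411 to 4037912. The alpha-class gene Gsta4 (Entrez 14860), whose enzyme conjugates the lipid aldehyde hydroxynonenal, lies on chromosome 9 from 78191966 to 78209349. The theta-class gene Gstt1 (Entrez 14871) lies on chromosome 10 from 75783813 to 75798584. The microsomal genes are Mgst1 (Entrez 56615), on chromosome 6 from 138140527 to 138156755, and Mgst3 (Entrez 66447), on chromosome 1 from 167371966 to 167393841.

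The sequences upstream of Gsto1, the gene that was higher at 12 months, and of Gstp1, the most abundant member, are shown because the members were compared with each other and differ in the core of the antioxidant response element. The 250 bases before each start site were read from the RefSeq promoter table of GRCm38.p6, where 7 of the 8 genes had a window. Both strands were searched for the letters TGACNNNGC and TGAGNNNGC, and matches are in capitals. The window of Gsto1 is chr19:47854723-47854972 on the plus strand and that of Gstp1 is chr19:4037913-4038162 on the minus strand, each printed 5′ to 3′ along the gene.

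Gsto1: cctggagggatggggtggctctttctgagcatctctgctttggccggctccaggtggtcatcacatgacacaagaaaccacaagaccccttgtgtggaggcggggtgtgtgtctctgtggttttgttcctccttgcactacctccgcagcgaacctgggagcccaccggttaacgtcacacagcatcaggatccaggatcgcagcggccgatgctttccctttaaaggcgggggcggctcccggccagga
Gstp1: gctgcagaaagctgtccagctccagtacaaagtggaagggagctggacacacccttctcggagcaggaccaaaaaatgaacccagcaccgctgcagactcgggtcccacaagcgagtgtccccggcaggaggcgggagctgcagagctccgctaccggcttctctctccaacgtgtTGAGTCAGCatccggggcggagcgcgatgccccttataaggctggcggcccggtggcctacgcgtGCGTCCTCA

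The Gsto1 window held no match, nor did those of Gstm1 and Mgst3. Gstp1 held TGAGTCAGC on its own strand and TGAGGACGC on the other. Matches were also found upstream of Gstm5, Gstt1 and Mgst1, which made 4 of the 9 windows of these 7 genes, beside 23% of all 32851 windows of the table. Gstm1 and Mgst1 had 2 windows each, and 1 of those of Mgst1 held a match. A match is a run of letters and not a measured binding site.

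The 12 libraries held 29027099 to 30438026 counts, and 16475 genes, all 8 members included, passed the filter on low counts. Rod markers summed to between 46907 and 55580 CPM (the share of a library's counts on the usual per-million scale, with TMM factors) in every library, as the labelled tissue implies. Abca1 itself was not lower in the KO libraries, at 22.7 ± 3.34 CPM in control and 26.3 ± 1.78 CPM in KO retina at 3 months, and at 30.8 ± 2.66 and 36.3 ± 7.91 CPM at 12 months (SD, n = 3 each). Counts over the whole gene in whole retina cannot check a deletion made in glia. The 3-month control replicate 2 stood apart from its group, with 14 lens markers summing to 5492 CPM against 52.4 to 249 CPM in the other 11 libraries. The 12-month KO replicate 1 stood apart from its group less strongly, with a chi-square per degree of freedom of 21.6 and 24.9 against the other libraries of its group, which gave 5.16 between themselves.

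Per kilobase of exon, Gstp1 was the most abundant of the 8 genes in retina by a wide margin. Its level was 139 ± 13.3 RPKM (SD over 12 libraries). Gstm5 at 21.7 ± 2.13, Gsta4 at 21.6 ± 1.49 and Gstm1 at 17.3 ± 6.26 RPKM followed. Gstm5 and Gsta4 did not differ beyond their spread. The SD of Gstm1 includes 36.1 RPKM in 3-month control replicate 2. In each of the other 11 libraries Gstm1, at 12.5 to 19.3 RPKM, lay below both Gstm5 and Gsta4. Mgst3 had 14.1 ± 1.84, Gstt1 13.5 ± 1.49 and Gsto1 10.5 ± 2.52 RPKM, which overlapped with each other over the 12 libraries, as did Gstm1 and Mgst3. Gsto1 reached the other 2 only in 12-month KO retina. In the 9 other libraries it ran from 7.45 to 10.9 RPKM, below the lowest values of Mgst3 (11.2) and Gstt1 (11.8). Mgst1 was lowest at 1.73 ± 0.395 RPKM, from 64 to 132 counts per library, so its values carry the largest counting error.

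**Figure D1:**
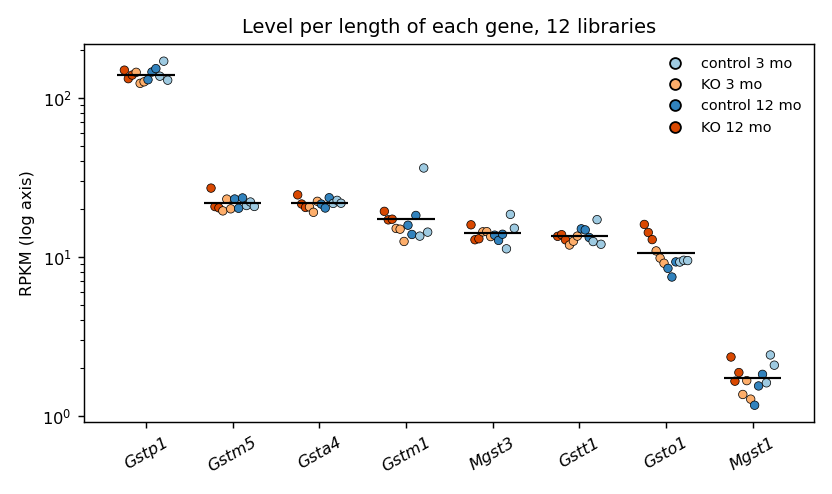
Level per length of each gene in RPKM on a log axis, with 1 point per library coloured by group and a line at the mean of the 12 libraries. Gstp1 lies above all others at a mean of 139 RPKM and Mgst1 below all others at 1.73 RPKM.

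Gsto1 was higher in 12-month KO retina than in any other group. In 12-month KO retina the 3 libraries gave 18.9, 16.8 and 15.1 CPM, from 571, 499 and 446 counts. In 12-month control retina they gave 9.98, 8.81 and 11.0 CPM, from 299, 262 and 325 counts. The remaining libraries were alike, with 10.9, 11.2 and 11.2 CPM in 3-month control and 12.9, 11.6 and 10.8 CPM in 3-month KO retina. The 3 libraries of 12-month KO retina lay above all 9 others, which spanned 8.81 to 12.9 CPM. The log2 fold change of KO against control at 12 months was 0.77 ± 0.12 (SE), a 1.71-fold difference, and without KO replicate 1, the highest library, it was 0.69. The authors' deposited table gives a log2 fold change of 0.51 for Gsto1 in this comparison, on a scale that appears shrunken toward 0.

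**Figure D2:**
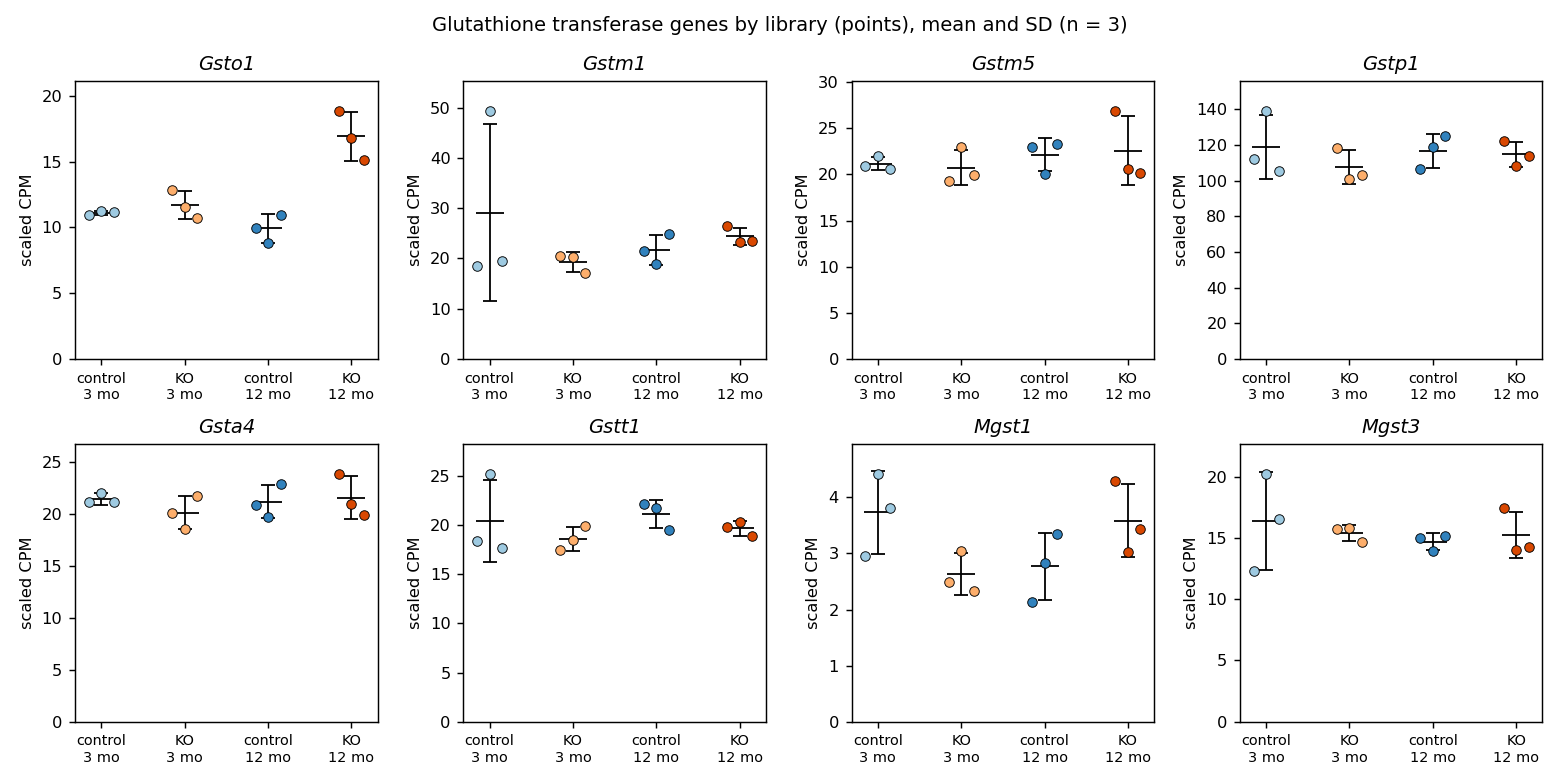
Scaled CPM of the 8 genes in each library (points, replicates 1 to 3 from left to right in each group), with the mean and SD of the 3 libraries of a group (bars). Only in the Gsto1 panel do the 3 points of 12-month KO retina, at 15.1 to 18.9 CPM, lie above all other libraries, and the highest point of the Gstm1 panel, 49.4 CPM, is the lens-rich 3-month control library.

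Several other measures separated the 12-month KO libraries from 12-month control. Xist, the RNA of the inactive X chromosome, stood at 52.3 to 85.5 CPM in the 3 libraries of 12-month KO retina and at 0.0686 to 0.609 CPM in the 9 others. The 4 Y-linked genes summed to 126 to 151 CPM in 12-month KO retina and to 90.7 to 157 CPM in the others. The part of this difference in the Gsto1 values cannot be told apart from that of the genotype at 12 months, since every KO library and no control library carried it. The summed markers of 4 of 12 cell type lists did not overlap between the 12-month groups, where 16.6% of all genes taken singly did not. Astrocyte markers summed to 819 to 883 CPM in KO and 890 to 946 CPM in control retina, and ganglion cell markers to 901 to 949 and 981 to 1028 CPM. Microglia markers summed to 64.7 to 70.1 against 62.4 to 64.2 CPM, and markers of the cornea and eye surface to 5.72 to 8.27 against 2.19 to 2.64 CPM. Such sums rest on the most abundant genes, and 0 tested genes of these 4 lists passed (edgeR). The log2 fold change was above 0 for 3 of 7 astrocyte, 2 of 9 ganglion cell, 6 of 9 microglia and 2 of 4 surface markers. Müller glia markers overlapped, at 5780 to 6059 CPM in KO and 5949 to 6141 CPM in control retina. No gene of the Müller glia, astrocyte, ganglion cell or microglia lists was at 0 in a 12-month library, while up to 2 of the 6 surface markers were. The part of these cell types in the Gsto1 values was not tested.

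The other 7 genes did not pass the test between KO and control retina at 12 months. In the edgeR quasi-likelihood test with Benjamini-Hochberg adjustment over all genes, 0 of 7 passed an adjusted p of 0.05, where 0.212% of all 16475 genes passed. An unadjusted p under 0.05 was found for 0 of 7, against 8.70% of all genes. DESeq2 and limma-voom also called 0 of 7. The KO and control libraries overlapped for each of the 7 genes, while they did not for 16.6% of all genes. The median log2 fold change of the 7 genes was 0.03, against 0.00 over all genes tested, with 5 above and 2 below 0. That split rested on KO replicate 1. Without it Gstm5, Gsta4 and Mgst3 fell below 0, at -0.12, -0.05 and -0.06. Gstm1 and Mgst1 stayed above 0, at 0.11 and 0.22, and Gstp1 and Gstt1 below, at -0.07 and -0.11.

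Among the mu-class genes, Gstm1 gave 26.4, 23.3 and 23.5 CPM in 12-month KO and 21.6, 18.9 and 24.8 CPM in 12-month control retina. The highest control library lay above 2 of the KO libraries. Its log2 fold change was 0.17 ± 0.34 (SE, adjusted p = 0.92, edgeR), the widest error of the 8 genes. Gstm5 gave 26.9, 20.6 and 20.2 CPM in KO and 23.0, 20.1 and 23.3 CPM in control retina, where only KO replicate 1 lay above the controls. Its log2 fold change was 0.03 ± 0.12 (SE, adjusted p = 0.96, edgeR) and became -0.12 without that library.

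The pi-class Gstp1, which conjugates small electrophiles, gave 122, 108 and 114 CPM in KO and 106, 119 and 125 CPM in control retina at 12 months. The values were interleaved. Its log2 fold change was -0.03 ± 0.10 (SE, adjusted p = 0.96, edgeR). Gsta4 gave 23.9, 21.0 and 19.9 CPM in KO and 20.9, 19.8 and 23.0 CPM in control retina, also interleaved, with a log2 fold change of 0.03 ± 0.10 (SE, adjusted p = 0.96, edgeR). For Gstt1 the KO libraries gave 19.8, 20.3 and 18.8 CPM and the control libraries 22.1, 21.8 and 19.5 CPM. This was the lowest of the 8 fold changes, -0.10 ± 0.12 on the log2 scale (SE, adjusted p = 0.83, edgeR).

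The membrane-bound Mgst1 had the highest fold change after Gsto1, but on few counts. It gave 4.29, 3.03 and 3.43 CPM in KO and 2.14, 2.82 and 3.34 CPM in control retina at 12 months. KO replicate 2 lay below the highest control, and the log2 fold change of 0.37 ± 0.22 did not pass (SE, adjusted p = 0.66, edgeR). Mgst3, whose enzyme has transferase and peroxidase activity, gave 17.4, 14.0 and 14.2 CPM in KO and 15.0, 13.9 and 15.2 CPM in control retina. Its log2 fold change was 0.05 ± 0.14 (SE, adjusted p = 0.94, edgeR).

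The intervals show what sizes of change these data allow. For 5 of the 7 genes (Gstm5, Gstp1, Gsta4, Gstt1 and Mgst3) the upper 95% bound of the fold change at 12 months was below the 1.71-fold difference seen for Gsto1, at 1.21, 1.13, 1.18, 1.11 and 1.28. For Gstm1 the interval ran from 0.657-fold to 1.91-fold and for Mgst1 from 0.938-fold to 1.79-fold, so a difference as large as that of Gsto1 lies within these 2 intervals. The spread was fitted over all 12 libraries, so the Gstm1 interval also carries 3-month control replicate 2, at 49.4 CPM, which is not in this comparison. Without that library the Gstm1 log2 fold change at 12 months was again 0.17 (adjusted p = 0.51, edgeR), and its interval was not computed. In the authors' deposited table the 7 genes have log2 fold changes from -0.08 to 0.14 and adjusted p-values from 0.80 to 0.99.

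**Figure D3:**
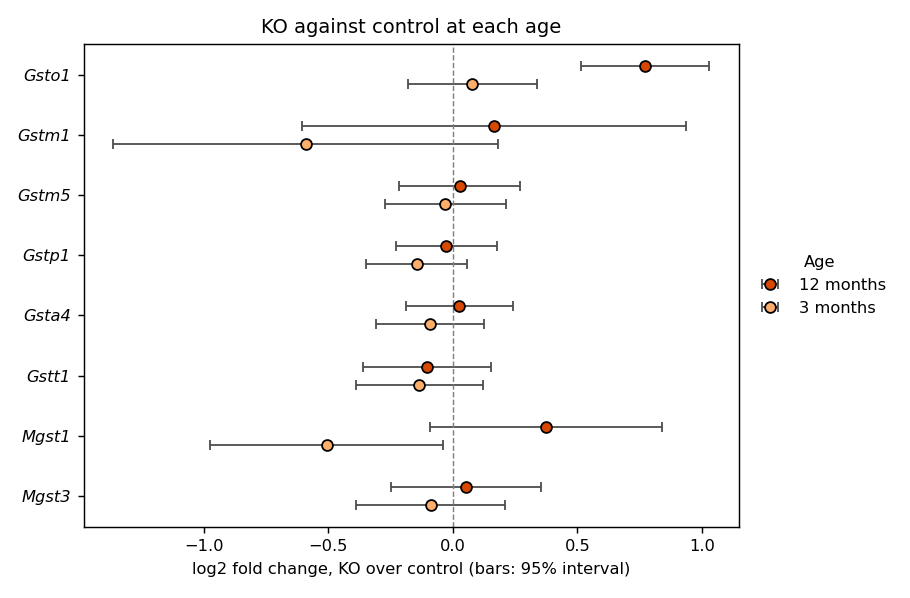
Log2 fold change of KO over control for each gene at 12 months and at 3 months (points) with 95% intervals from the edgeR fit (bars). The 12-month points of the other 7 genes lie between -0.10 and 0.37, and that of Gsto1, 0.77, is shown as a description since the gene was chosen on those libraries.

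At 3 months none of the 8 genes passed, Gsto1 included, for which this comparison is a test. By edgeR 0 of 8 had an adjusted p below 0.05, where 0.225% of all genes passed. An unadjusted p under 0.05 was found for 1 of 8, Mgst1, against 7.50% of all genes. DESeq2 and limma-voom also called 0 of 8. The Gsto1 means were 11.7 ± 1.06 CPM in KO and 11.1 ± 0.154 CPM in control retina (SD, n = 3), a log2 fold change of 0.08 ± 0.12 (SE, adjusted p = 0.86, edgeR). Its 95% interval ran from 0.882-fold to 1.26-fold, and the libraries overlapped, as they did for the other 7 genes and did not for 15.6% of all genes.

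Of the other genes at 3 months, Gstm1 and Mgst1 had the lowest fold changes. Gstm1 gave 20.6, 20.4 and 17.0 CPM in KO and 18.4, 49.4 and 19.5 CPM in control retina, so that 1 control library stood far above all others. Its log2 fold change was -0.59 ± 0.34 (SE, adjusted p = 0.69, edgeR), and 0.03 without that library, 3-month control replicate 2. Mgst1 gave 2.50, 3.05 and 2.33 CPM in KO and 2.96, 4.42 and 3.82 CPM in control retina, with a log2 fold change of -0.51 ± 0.22 (SE, adjusted p = 0.66, edgeR). Without the same library it was -0.37. All 3 libraries of 3-month control also held more skeletal muscle RNA, whose 12 markers summed to 84.7 to 95.4 CPM against 9.27 to 14.1 CPM in 3-month KO retina, 10 of the 12 lower in KO (edgeR), and its part in these values was not tested. The other 5 genes lay between -0.15 and -0.03.

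Whether the KO effect changed from 3 to 12 months was tested directly. By edgeR 0 of the 7 genes passed, where 0.127% of all genes did. An unadjusted p under 0.05 was found for 1 of 7, Mgst1, against 4.33% of all genes. The log2 differences were 0.76 ± 0.48 (SE) for Gstm1 and 0.88 ± 0.32 (SE) for Mgst1, both with adjusted p = 0.999 (edgeR), and 0.03 to 0.14 for the other 5. Without 3-month control replicate 2 the Gstm1 difference was 0.14 and the Mgst1 difference 0.74. For Gsto1 the difference was 0.69 ± 0.17 (SE), given as a description. Over both ages KO against control called 0 of 7 (edgeR, 0.316% of all genes), and 0 of 7 had an unadjusted p under 0.05, against 12.9% of all genes.

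Lens-rich 3-month control replicate 2 held the highest level of 5 of the 8 genes. Gstm1 stood there at 49.4 CPM, 2.60 times the mean of the other 2 controls of that age, and at 17.0 to 26.4 CPM in the other 11 libraries. Gstt1 stood at 25.2 CPM (1.40 times), Mgst3 at 20.2 CPM (1.40 times), Mgst1 at 4.42 CPM (1.31 times) and Gstp1 at 139 CPM (1.28 times). Gstm5, Gsta4 and Gsto1 were near the other controls, at 1.06, 1.04 and 1.02 times. Gstm2, a mu-class gene that is no member and was chosen after its values were seen, moved most, with 145 counts in this library and 8 and 28 in the other controls, 8.04 times their mean CPM. The lens markers summed to 32.4 times the mean of the other controls. With 1 such library there is no test, and the part of lens tissue in these values was not tested.

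**Figure D4:**
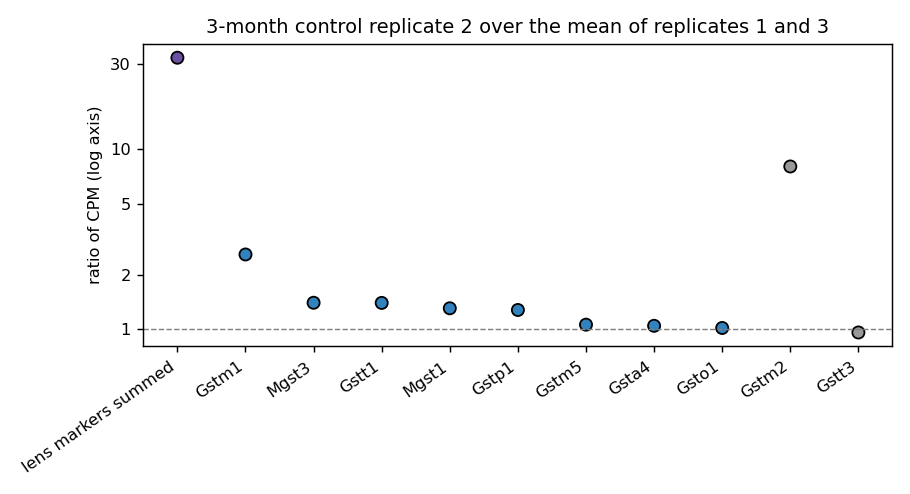
Ratio of the CPM in 3-month control replicate 2 to the mean of replicates 1 and 3 on a log axis, for 14 lens markers summed, the 8 genes (blue) and Gstm2 and Gstt3 (grey). Gstm1 is the highest of the 8 genes at 2.60 and Gsto1 the lowest at 1.02.

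The correlations of log2 CPM across the 12 libraries are a description, since the libraries share groups and 1 lens-rich sample. The 21 pairs without Gsto1 had Pearson r from 0.14 to 0.78, the highest for Gstm1 with Gstp1. The median over those pairs was 0.43, and 0.36 without the lens-rich library. Gstm1 and Gstt1 went from 0.67 to 0.10 and Gstp1 and Mgst3 from 0.51 to 0.07 when it was left out. Gsto1 had r from -0.23 with Gstt1 to 0.42 with Mgst1. Without the lens-rich library its r with Gstm1 went from 0.22 to 0.69 and with Mgst1 to 0.55. The values for Gsto1 include the 12-month KO libraries on which that gene was chosen, and they were not computed without that group.

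Between 3 and 12 months none of the 7 genes passed in either genotype. By edgeR 0 of 7 passed in control retina, where 2.11% of all genes did, and 0 of 7 in KO retina, where 2.37% did. Neither comparison gave an unadjusted p under 0.05 for any of the 7, where 12.5% of all genes had one in control and 13.3% in KO retina. In control retina the log2 fold changes ran from -0.43 for Mgst1 to 0.06 for Gstm5. In KO retina they ran from -0.02 for Mgst3 to 0.45 for Mgst1, and the Gstm1 libraries did not overlap, at 23.3 to 26.4 CPM at 12 months and 17.0 to 20.6 CPM at 3 months, though its log2 fold change of 0.34 ± 0.34 did not pass (SE, adjusted p = 0.78, edgeR). In that comparison the libraries of 22.2% of all genes did not overlap. The Gstm1 error was fitted over all 12 libraries, with 3-month control replicate 2 among them, a library of neither group compared. Without that library the Gstm1 log2 fold change with age in KO retina was again 0.34 and did not pass (adjusted p = 0.075, edgeR). Over all genes the number called in that comparison then went from 390 to 717. Gsto1 is described only, with a log2 fold change of -0.16 with age in control and 0.53 in KO retina.

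Over both genotypes together, 12 against 3 months called 0 of 7, where 6.38% of all genes passed (edgeR), and 0 of 7 had an unadjusted p under 0.05, against 18.7% of all genes. This count rested on 3-month control replicate 2. Without that library Gstm1 passed, higher at 12 months by a log2 fold change of 0.27 (adjusted p = 0.038, edgeR), against -0.04 with it.

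A list of further transferase and related genes was also read, with Hpgds, Ptges, Ltc4s and Alox5ap among them. Of 24 on the list, 22 were in the files and 17 were tested, some on few counts (Gsta2 on 2 to 16, Ltc4s on 2 to 18). Between KO and control 0 of 17 passed at either age (edgeR). Of all genes 0.212% passed at 12 months and 0.225% at 3 months, so 0 of 17 says little. The median log2 fold change was 0.04 at 12 months and 0.12 at 3 months against 0.00 over all genes at both. The 2 with the highest CPM were Gstz1, the zeta-class enzyme of tyrosine breakdown, with 0.09 ± 0.11 (SE) at 12 months, and Gstcd, with 0.04 ± 0.11 (SE).

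Gstt3, a theta-class gene, was the 1 of these 17 that passed with age, in control, in KO and over both genotypes, where 2.11%, 2.37% and 6.38% of all genes passed. Over both genotypes 1 of 17 is near the share of all genes. It gave 3.87, 3.62 and 3.68 CPM in 3-month control and 4.25, 3.91 and 4.13 CPM in 3-month KO retina. At 12 months it gave 6.88, 6.42 and 6.95 CPM in control and 6.34, 6.86 and 5.91 CPM in KO retina. Every 12-month library lay above every 3-month library, a separation found in either direction for 4.02% of all genes. The counts ran from 108 to 126 at 3 months and from 174 to 206 at 12 months. Gstt3 rose with age by 0.86 ± 0.15 (log2, SE, adjusted p = 0.0016, edgeR) in control and by 0.64 ± 0.15 (SE, adjusted p = 0.020, edgeR) in KO retina. Over both genotypes the rise was 1.68-fold (adjusted p = 8.9e-05, edgeR). In KO retina the call was lost without 3-month KO replicate 1, 2 or 3 or 12-month KO replicate 2 (adjusted p = 0.072, 0.11, 0.089 and 0.10, edgeR), while the log2 fold change stayed at 0.66, 0.60, 0.64 and 0.58. Other markers moved with age too. Microglia markers summed to 46.9 to 51.4 CPM at 3 months and 62.4 to 70.1 CPM at 12 months, with 6 of 9 tested higher over both genotypes, and skeletal muscle markers in control went from 84.7 to 95.4 CPM at 3 months to 7.66 to 9.58 CPM at 12 months, with 10 of 12 lower (edgeR). Between 3-month and 12-month KO retina 0 of 12 muscle markers passed (edgeR). The part of microglia or of skeletal muscle RNA in the Gstt3 values was not tested. The change in the KO effect on Gstt3 between the ages did not pass (log2 difference -0.22 ± 0.21 SE, adjusted p = 0.999, edgeR), and at 12 months it was -0.08.

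**Figure D5:**
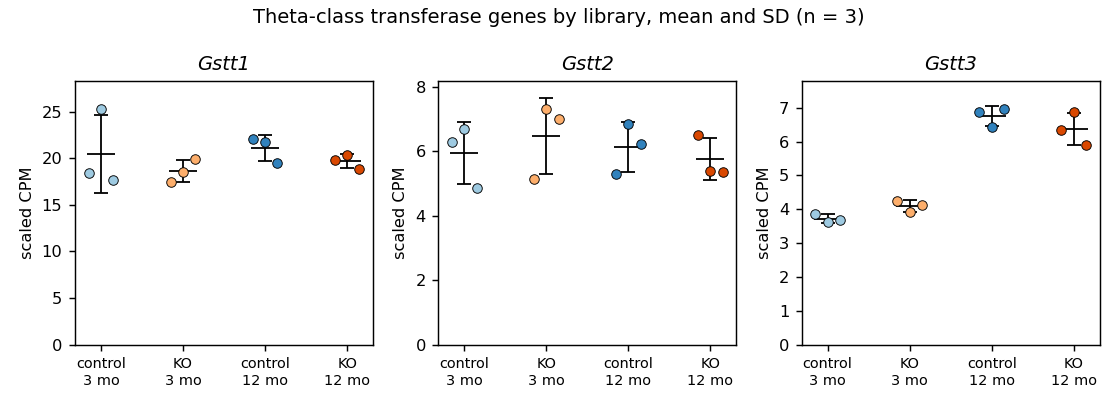
Scaled CPM of the theta-class genes Gstt1, Gstt2 and Gstt3 by library (points), with the mean and SD of each group of 3 (bars). Gstt3 is the only panel in which all 12-month libraries, at 5.91 to 6.95 CPM, lie above all 3-month libraries, at 3.62 to 4.25 CPM.

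The genes that supply and use glutathione did not pass between KO and control at either age. Of all genes 0.212% passed at 12 months and 0.225% at 3 months, so 0 calls in lists of these sizes say little. Of 17 tested genes for glutathione synthesis and recycling 0 passed, with medians of 0.02 at 12 months and -0.02 at 3 months on the log2 scale. The 2 with the highest levels were Slc3a2, a chain of the cystine transporter, at -0.003 and -0.05, and Ggt7, a gamma-glutamyltransferase family gene, at -0.09 and -0.08. Of 21 tested glutathione peroxidase and redoxin genes 0 passed, with medians of 0.08 and -0.06. Here Gpx4, which reduces lipid hydroperoxides in membranes, stood at -0.16 and -0.09, and Prdx2 at -0.04 and -0.01. Of 21 tested NRF2 response genes 0 passed, with medians of 0.004 and -0.06, among them the ferritin chain Fth1 at 0.02 and -0.08 and Sqstm1 at -0.11 and -0.06. Of 7 tested genes for the export of conjugates 0 passed, with medians of -0.06 and -0.01.

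With age over both genotypes, 1 of 21 tested genes passed of the peroxidase and redoxin list and 1 of 21 of the NRF2 list. This is near the share of all genes, 6.38%. The peroxidase gene Prdx6 rose by 0.21 ± 0.06 (log2, SE, adjusted p = 0.032, edgeR) and the epoxide hydrolase Ephx1 of the NRF2 list by 0.39 ± 0.10 (SE, adjusted p = 0.017, edgeR). Ephx1 also rose with age within KO retina, by 0.60 ± 0.14 (SE, adjusted p = 0.019, edgeR). It was the 1 of 21 NRF2 genes that passed there, where 2.37% of all genes did. Each of these calls was lost without some single libraries, with fold changes of about the same size. The Ephx1 calls were lost without 12-month KO replicate 2 or 3-month KO replicate 3, and within KO retina also without 3-month KO replicate 2 (adjusted p up to 0.13, log2 fold changes of at least 0.36 over both genotypes and 0.54 within KO retina, edgeR). The Prdx6 call was lost without 3-month control replicate 1, 12-month control replicate 2 or 3, any 3-month KO library or 12-month KO replicate 2 (adjusted p up to 0.094, log2 fold changes from 0.19 to 0.22, edgeR).

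No gene near Gsto1 passed the test at 12 months. Of 10 tested genes within 500 kb on chromosome 19, 0 passed between KO and control at 12 months (edgeR), where 0.212% of all genes did. At that share 0 of 10 says little. Their log2 fold changes ran from -0.53 to 0.41, with a median of 0.09. Gsto2, the other omega-class gene and a close neighbour, stood at 0.73 ± 0.36 CPM in KO and 0.67 ± 0.21 CPM in control retina (SD, n = 3), with a log2 fold change of 0.12 ± 0.46 (SE, adjusted p = 0.96, edgeR). The level of Gsto2 was too low to show a change of the size seen for Gsto1.

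The 5 genes whose log2 CPM followed Gsto1 most closely over the 12 libraries, among 14355 genes, were Edn2, 1110004F10Rik, Prkd1, Rars2 and Xist, with Pearson r of 0.93, 0.90, 0.90, 0.89 and 0.89. Edn2 codes for an endothelin, a peptide that acts on vessels and glia. Without the 3 libraries of 12-month KO retina the same values were 0.49, 0.55, 0.34, 0.75 and 0.23. The value fell least for Rars2, which codes for a mitochondrial arginyl-tRNA synthetase. All these values are a description, since the 5 genes were picked for their r over libraries that include that group.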

How the data were processed

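Whole-retina poly(A) RNA of 12 libraries was sequenced. The submitters' processing notes name HISAT2 2.1.0, featureCounts 1.6.4, DESeq2 1.22.1 and the build GRCm38. The authors deposited raw read counts for Entrez gene IDs. A RefSeq table of GRCm38.p6 named 25275 IDs and 1904, with at most 0.284% of the counts, were left without a name. Counts from 1 to 20 were even in 60.7% to 70.2% of cases, against 48.6% to 50.7% for 101 to 400, which points to both mates being counted. The sources used here do not give the strand setting or how reads with several alignments were treated. Of the 50-base stretches of Gstp1 transcripts 33.7% also occur in Gstp2, of Gstm1 18.9% in other genes and of Gstm5 9.44% in the overlapping 4933431E20Rik (GENCODE M21), so these 3 genes are uncertain where reads could be split, and the other 5 shared none.

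The authors' deposited table of the 12-month comparison has no header, and its columns were read as a normalized signal, a log2 fold change, a standard error, a Wald score, a p-value and an adjusted p-value. In that deposited table the signal is the mean normalized count, and the log2 values appear shrunken. In the authors' table the score is the ratio of that fold change to its error.

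Counts were filtered with filterByExpr, scaled by TMM and fitted with edgeR 4.0.16 (robust glmQLFit and glmQLFTest, limma 3.58.1, R 4.3.3) with 1 coefficient per group over all 12 libraries, with Benjamini-Hochberg adjustment over 16475 genes. The common biological coefficient of variation was 0.110. CPM were divided by the exon length of the GENCODE gene for RPKM, and log2 CPM used a prior count of 2. The model was tested on simulated data. The members and lists were chosen with earlier results of these data known. All 8 members are named, and of each other list the members that passed, or the 2 with the highest CPM where none did, with the neighbours of Gsto1 and the 5 genes of the most similar pattern with a mean of at least 1 CPM. The result of 1 gene that this rule names is not reported here. Alternatives were RLE and upper quartile factors, 2 other filters, limma-voom with quality weights, DESeq2 1.42.0, only the libraries compared, a replicate block, a threshold of 0.1 and each library left out. A fit to halved counts was chosen after seeing the data.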

Additional observations from a re-analysis of the deposited data

How the results depend on the processing

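Over all alternatives, 1152 member fold changes were recomputed, and 69 had the other sign. Of these, 19 also moved by over 1 SE, and those are listed below. The 12-month Gsto1 log2 fold change ran from 0.69 to 0.85. The count of members called stayed at 0 in every comparison and alternative but 1, namely 12 against 3 months over both genotypes, where leaving out each library gave 0 to 1. Over all genes the number called at 12 months was 35 with edgeR, 127 with DESeq2, 186 with voom, 64 with no filter and 13 to 166 with each library left out, and at 3 months it was 37, 63, 79 and 43 with the first 4 of these. With a replicate block 0 members were called in every comparison. The replicate numbers gave no clear sign of pairing, as 1 of 18 same-numbered pairs correlated above 0.1 (range -0.08 to 0.14). Differently numbered pairs were not compared, so this check cannot show that the libraries were unpaired. With voom quality weights the sign turned for KO against control at 3 months in Gstt1 (0.0112) and Mgst3 (0.0555), for age in control in Gstm1 (0.12) and Gstp1 (0.10), for the difference of KO effects in Gstp1 (-0.0586) and Mgst3 (-0.0873), for KO over both ages in Gstm1 (0.0293) and for age over both genotypes in Gstm1 (0.20). Leaving out each library moved the log2 fold change of KO at 12 months from -0.12 to 0.10 in Gstm5, and that of KO at 3 months from -0.83 to 0.0276 in Gstm1, -0.23 to 0.0465 in Gstt1 and -0.26 to 0.0924 in Mgst3. It moved age in control from -0.66 to 0.20 in Gstm1, -0.105 to 0.10 in Gstp1 and -0.33 to 0.0248 in Mgst3, and age in KO from -0.0239 to 0.20 in Gstm5. For the difference of KO effects Gstt1 ran from -0.15 to 0.125, for KO over both ages Gstm1 from -0.33 to 0.10, and for age over both genotypes Gstm1 from -0.16 to 0.27. Among the changes of sign by less than 1 SE were some of KO at 12 months. There leaving out each library moved Gstp1 from -0.09 to 0.03, Gsta4 from -0.05 to 0.09 and Mgst3 from -0.06 to 0.11. The cause of these changes was not tested. Depth limits Mgst1 most, at 64 to 132 counts.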
